A study of Mus musculus with 45 samples.

Results

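Muscle myosin light chains and the kinase that phosphorylates them were followed while mouse fibroblasts were turned into muscle cells. The 8 genes were chosen by name, as the muscle-type myosin light chains (Myl1, Mylpf, Myl2, Myl3, Myl4, Myl7 and Myl6b) and skeletal myosin light chain kinase (Mylk2). They are 8 of the 35675 genes in the data. Each gene's reads and its TPM (a level per transcript length, with the same total in every library) were summed over its transcripts. All cells carried the Pax7-nGFP reporter transgene in a C57BL6;DBA2 background. Mouse embryonic fibroblasts (MEFs) in which doxycycline switches on MyoD, a transcription factor that drives muscle genes, were sampled untreated. The same cells were sampled after 2, 4, 6, 8 and 10 days of doxycycline, either alone (MyoD alone) or together with the small molecules labelled F/R/C (MyoD with F/R/C). The labels describe the first arm as myotubes and the second as fibres and progenitors. The remaining 4 groups were bulk cultures of induced myogenic progenitor cells (iMPCs), established clones which no longer need doxycycline and are kept in F/R/C, iMPCs sorted for the Pax7 reporter, bulk myoblasts and myoblasts sorted for the reporter. Each of the 15 groups had 3 libraries. The labels do not say whether the 3 came from separate embryos or cultures, so p-values measure the spread between these libraries. In the fibroblasts and induced groups, Y-linked reads (given below) set the libraries numbered 3 apart from those numbered 1 and 2. The spread between number 3 and the others is thus not only technical there. Between numbers 1 and 2, and in the remaining groups, the spread may be technical.

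A myosin motor is built from heavy chains, each of which carries an essential and a regulatory light chain on its neck. Fast skeletal fibres use Myl1 as the essential chain and Mylpf as the regulatory chain. Slow fibres and the ventricle of the heart use Myl3 and Myl2. Myl4 and Myl7 are the essential and regulatory chains of the atrium, and Myl4 is also made in embryonic skeletal muscle. Myl6b is an essential chain made in slow skeletal muscle and other tissues. Mylk2, activated by calcium and calmodulin, phosphorylates the regulatory chain of skeletal muscle and raises the force of contraction.

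Coordinates are of GRCm38, from GENCODE M21. Myl1 lies at chr1:66924295-66945404 on the minus strand, Mylpf at chr7:127208890-127214298 on the plus strand, Myl3 at chr9:110741861-110769798 on the plus strand and Myl2 at chr5:122100951-122113472 on the plus strand. Myl4 lies at chr11:104550663-104595753 on the plus strand, Myl7 at chr11:5896637-5898782 on the minus strand, Myl6b at chr10:128494157-128498685 on the minus strand and Mylk2 at chr2:152911352-152923068 on the plus strand. Myl1 has 2 promoters and makes 2 proteins, a long one (MLC1f, 188 residues) and a short one (MLC3f, 150 residues). They share 422 coding bases and differ in their starts, which are shown because the balance of the 2 forms is measured below. The own coding start of the long form has 142 bases in 2 exons (66944792-66944905 and 66934246-66934273 on chromosome 1). That of the short form has 28 bases in 2 exons (66935276-66935278 and 66934518-66934542). Capitals mark the start codon.
MLC1f: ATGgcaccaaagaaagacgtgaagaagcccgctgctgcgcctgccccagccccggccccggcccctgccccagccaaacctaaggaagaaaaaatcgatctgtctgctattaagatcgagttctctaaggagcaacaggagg
MLC3f: ATGtccttcagtgctgaccagattgccg

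MyoD binds E-boxes, the motif CANNTG, and the sequences before the start sites of the fast chains and of Myl3 are shown because their levels after MyoD are described below. RefSeq sequences (GRCm38.p6) were held for 7 of the 8 members, all but Mylk2. The stretches are chr1:66945144-66945290 before the MLC1f transcript of Myl1 (minus strand), chr7:127211358-127211607 before Mylpf (plus strand) and chr9:110763428-110763645 before Myl3 (plus strand), each without annotated exon bases. Capitals mark the CANNTG matches.
Myl1: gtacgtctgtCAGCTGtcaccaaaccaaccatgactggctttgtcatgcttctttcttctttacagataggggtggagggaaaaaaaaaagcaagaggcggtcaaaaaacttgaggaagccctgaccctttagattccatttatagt
Mylpf: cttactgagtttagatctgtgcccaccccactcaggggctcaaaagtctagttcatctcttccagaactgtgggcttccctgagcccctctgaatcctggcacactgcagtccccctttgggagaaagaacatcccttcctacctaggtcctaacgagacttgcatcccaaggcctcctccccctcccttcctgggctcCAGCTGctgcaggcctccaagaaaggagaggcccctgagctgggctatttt
Myl3: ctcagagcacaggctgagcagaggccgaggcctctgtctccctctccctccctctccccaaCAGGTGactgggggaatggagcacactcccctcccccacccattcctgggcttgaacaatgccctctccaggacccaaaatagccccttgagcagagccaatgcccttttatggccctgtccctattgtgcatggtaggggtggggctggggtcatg
CANNTG reads the same on both strands. It was found in 66.2% of 32851 RefSeq promoters (the 250 bases before the start), so its presence in 1 copy in each stretch does not set these genes apart. The form CAGCTG, a subset of CANNTG that stands before Myl1 (bases -224 to -219 from the RefSeq start site) and Mylpf (bases -51 to -46), was found in 13.0%. The MEF2 motif was found in 2.9% of the promoters and in none of the members' windows. The windows of Myl2 and Myl4 do not lie at the start of their most abundant transcript, and the stretches before Myl1 and Mylpf belong to transcripts that were not the most abundant of their gene over these libraries.

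Total estimated reads per library ran from 15.64 to 36.28 M, with a median of 22.1 M. In count tests, edgeR's quasi-likelihood test was fitted to all 45 libraries and 17325 genes, and calls needed an adjusted p (Benjamini-Hochberg) below 0.05 with a change of at least 2-fold, which is 1 on the log2 scale. Beside each count of members stands the percentage of all genes tested that were called in the same comparison, in either direction unless 1 is named. The closing section on processing gives most counts of members without it, and the share over all genes changed there too. Myl7 failed the filter on low counts, so 7 of the 8 members were tested. Several libraries stood apart. MEF replicate 1 held muscle reads that the other MEF libraries lacked or held at lower levels, and bulk myoblast replicate 3 had much lower muscle levels than its partners. In the fibroblasts and both induced arms, the summed TPM of 4 Y-linked genes was 80.2 to 96.9 in all 11 libraries numbered 3, and at most 2.18 in those numbered 1 or 2. Libraries numbered 3 thus differed from the others apart from their groups. Calls of members that rest on replicate 3 are given with and without it, except a Myl7 call made without the filter. Calls of marker and partner genes are given with it only. In bulk samples, fewer cells of a type and less RNA per cell cannot be told apart.

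The fast pair was high from the first time point. Mylpf, the fast regulatory chain, stood at 35.5, 2.93 and 3.36 TPM in the 3 MEF libraries, at 4395, 6141 and 4750 TPM after 2 days of MyoD alone, and at 2771, 4660 and 2888 TPM after 2 days with F/R/C. Myl1, the fast essential chain, stood at 17.1, 0 and 0 TPM in MEFs, at 1388, 2113 and 1650 TPM after 2 days of MyoD alone and at 1583, 2364 and 1521 TPM with F/R/C. All induced libraries were above all MEF libraries for both genes. On day 2 of MyoD alone, 6 of the 7 tested members had risen over MEFs, all but Myl2, where 22.4% of all genes were called (12.3% higher). The log2 difference was 8.81 ± 1.02 for Mylpf (SE, edgeR adjusted p = 5e-08) and 8.39 ± 1.19 for Myl1 (adjusted p = 1.5e-06). Without MEF replicate 1 the Mylpf difference was 11.37, and no Myl1 fold could be given because the other MEF libraries held no Myl1 read. With F/R/C, 5 of 7 had risen by day 2 (all but Myl2 and Myl3), against 20.4% of all genes (11.5% higher).

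Later levels of the fast chains differed by day. Mylpf with F/R/C was highest on day 4, at 6335, 8224 and 7323 TPM, all above its day 2 libraries, and stood at 2996, 3696 and 4702 TPM on day 10. In MyoD alone on day 10 it stood at 4769, 9484 and 3703 TPM, with replicate 2 far above the other 2. Myl1 was highest on day 4 in both arms, at 4460, 6622 and 3628 TPM with MyoD alone and at 4958, 6558 and 5532 TPM with F/R/C. In both arms these libraries lay above those of day 2, a difference that was not tested. From day 2 to day 10, neither gene was called in either arm. The log2 difference was 0.12 ± 0.72 for Mylpf and 0.98 ± 0.86 for Myl1 with MyoD alone, and 0.08 ± 0.72 and 1.03 ± 0.86 with F/R/C. Over the 15 groups, mean Mylpf ran from 13.9 TPM in MEFs and 306 TPM in sorted iMPCs to 7294 TPM with F/R/C on day 4, and the libraries of each pair of neighbours in that order overlapped from sorted myoblasts (2541 TPM) up to the top. Mean Myl1 was highest in bulk iMPCs (7650 TPM), whose libraries lay above all those of the next group, F/R/C on day 4 (5683 TPM). Lower in the order the libraries of neighbouring groups overlapped, down to MyoD alone on day 2 (1717 TPM), whose libraries all lay above those of sorted myoblasts (705 TPM).

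**Figure D1:**
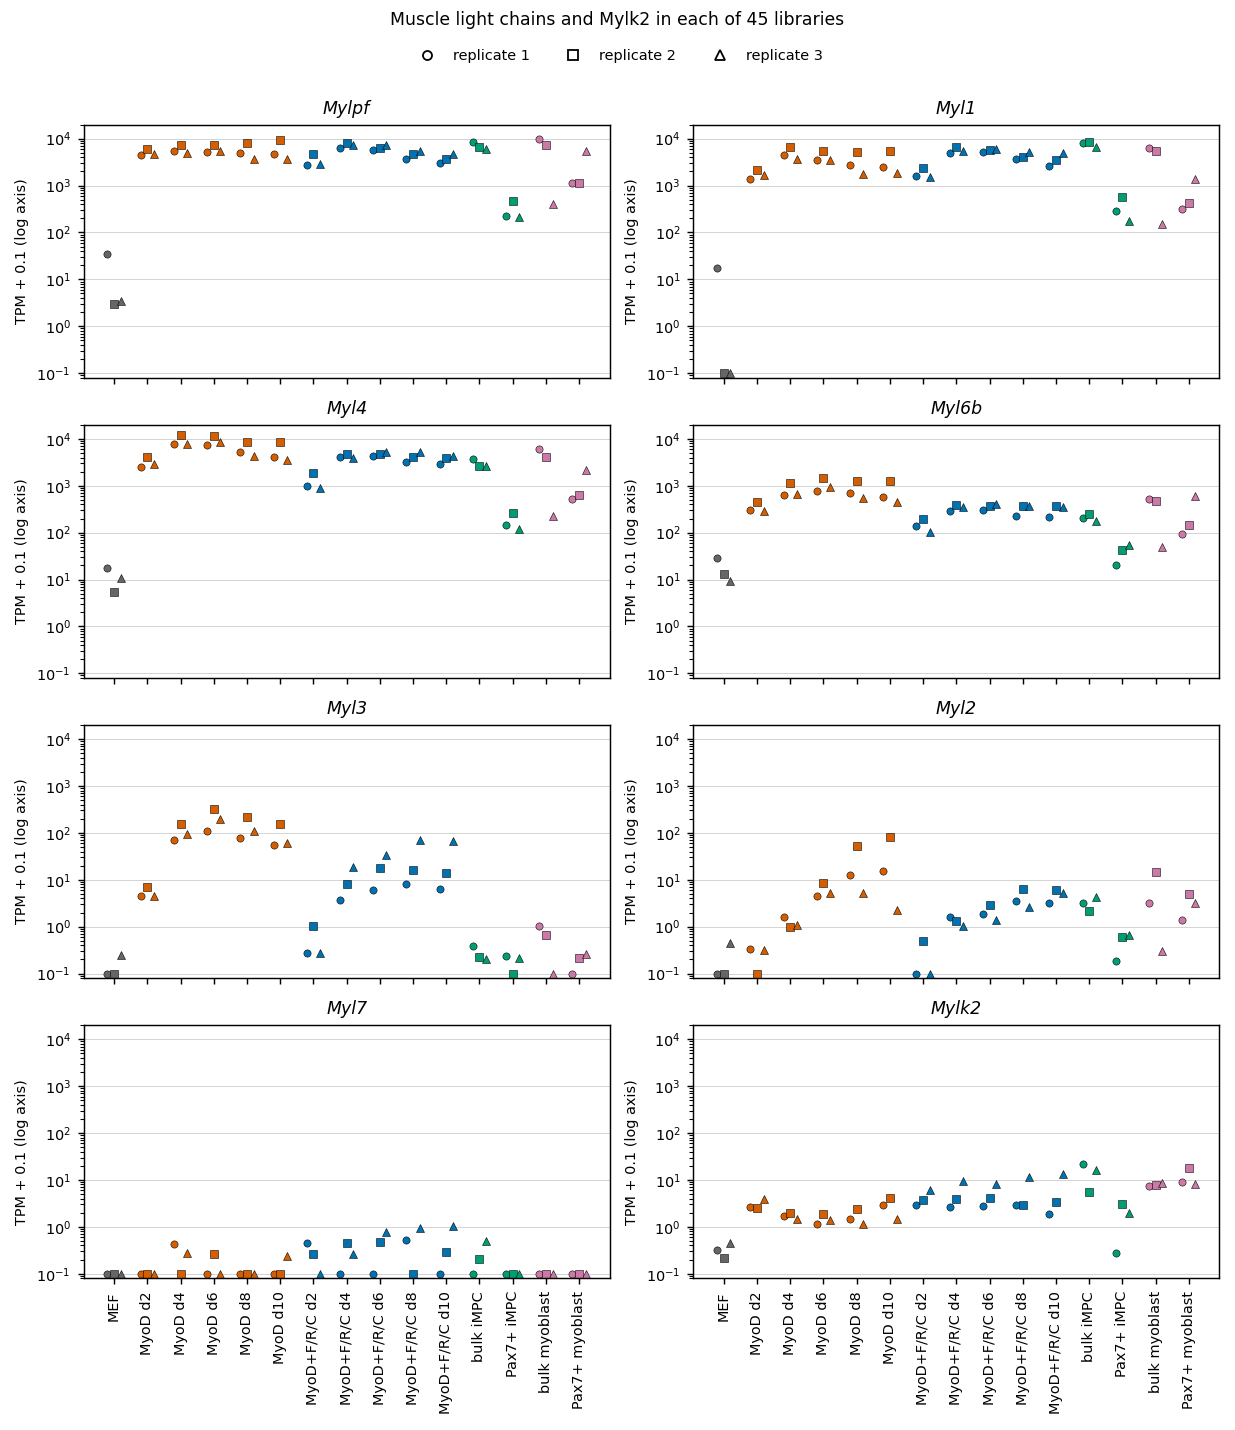
Level of each member in each library (points, TPM on a log scale, vertical axis) in the 15 groups (horizontal axis). Myl1 and Mylpf rise from at most 35.5 TPM in MEFs to over 1000 TPM on day 2 in both arms, while Myl3 and Myl2 are lower on every day.

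The slow pair stood at far lower levels than the fast pair. Myl3, the slow and ventricular essential chain, was read 0, 0 and 1 times in the MEF libraries (0, 0 and 0.149 TPM). With MyoD alone it stood at 4.48, 7.04 and 4.31 TPM on day 2, 70.8, 151 and 92.3 TPM on day 4 and 110, 319 and 200 TPM on day 6. It then stood at 77.8, 214 and 112 TPM on day 8 and 55.1, 157 and 59.2 TPM on day 10. Day 6 thus held the highest mean, and replicate 2 was the highest library on every day. With F/R/C, Myl3 was 0.179, 0.936 and 0.179 TPM on day 2, 3.57, 8.12 and 18.3 TPM on day 4 and 5.93, 18.1 and 33.7 TPM on day 6. It stood at 7.99, 16.1 and 70.8 TPM on day 8 and 6.25, 13.6 and 65.4 TPM on day 10. All F/R/C libraries lay below all MyoD libraries of the same day up to day 8. On day 10, F/R/C replicate 3 (65.4 TPM) lay above 2 of the MyoD libraries. In reads scaled to library size, Myl3 on day 2 of MyoD alone was 124 times the MEF level (95% exact counting interval 21.8 to 4922, 124 reads against 1) and with F/R/C 11 times (1.63 to 471, 12 reads against 1). With single libraries left out, an alternative added after the values were seen, the latter was 2.72 (0.142 to 161) without replicate 2 of F/R/C. By day 10 the ratios were 2172 (389 to 85819) and 759 (136 to 30029). The first was 1353 (242 to 53475) without replicate 2 of MyoD alone on day 10, and the second was 225 (39.8 to 8927) without replicate 3 of F/R/C. Without MEF replicate 1 or 2 the day 2 ratio of MyoD alone was 76.8 or 79.3, that of F/R/C 6.84 or 7.07, and the day 10 ratios 1349 or 1393 and 472 or 487. The only MEF read was in replicate 3, so no ratio could be given without it. These intervals cover counting error only.

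Myl2, the slow and ventricular regulatory chain, was the last to appear. It was at 0.238, 0 and 0.211 TPM on day 2 of MyoD alone and at 0, 0.40 and 0 TPM with F/R/C, which is 2 reads and 1 read in all. With MyoD alone it then stood at 4.39, 8.51 and 4.99 TPM on day 6, 12.3, 52.9 and 5.08 TPM on day 8 and 15, 80.7 and 2.12 TPM on day 10. In the F/R/C arm it stood at 3.46, 6.21 and 2.52 TPM on day 8 and at 3.08, 5.87 and 5.03 TPM on day 10. Replicate 2 of MyoD alone carried most of the level on days 8 and 10. On day 10, all 7 tested members were called higher than MEFs in both arms, where 18.9% (MyoD alone, 14.3% higher) and 34.8% (F/R/C, 19.0% higher) of all genes were called. The MEF libraries held 0, 0 and 1 reads of Myl2. Myl2 on day 10 was 239 times its day 2 level with MyoD alone (95% exact counting interval 65.9 to 1981) and 67.2 times with F/R/C (11.7 to 2688). The first ratio was 73.0 (19.8 to 610) without replicate 2 of MyoD alone on day 10 and 393 (108 to 3252) without replicate 3. Without replicate 1 or 3 of F/R/C on day 2 the second was 44.2 or 44.9, and replicate 2 held the only read of that day. From day 2 to day 10 only Myl2 and Myl3 were called among the 7 tested members, both higher, in MyoD alone (background 6.26%) and with F/R/C (16.0%). Myl3 rose by 4.21 ± 0.88 on the log2 scale with MyoD alone (edgeR adjusted p = 0.0016) and by 5.94 ± 1.07 with F/R/C (adjusted p = 0.00019). Without replicate 2 of day 10 the first was 3.45, and without replicate 3 of day 10 the second was 4.50. Without replicate 2 of F/R/C on day 2 it was 7.89.

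Myl4, the atrial and embryonic essential chain, was abundant in every muscle group and highest in MyoD alone. It stood at 17.8, 5.31 and 10.6 TPM in MEFs, 2496, 4029 and 2953 TPM after 2 days of MyoD alone and 7904, 12301 and 7898 TPM after 4 days. This was the highest level of any member. It then stood at 7453, 11359 and 8487 TPM on day 6 and 4029, 8381 and 3512 TPM on day 10. With F/R/C it stood at 1003, 1891 and 913 TPM on day 2, 4097, 4754 and 3856 TPM on day 4, 4366, 4701 and 5227 TPM on day 6 and 2875, 3972 and 4419 TPM on day 10. All F/R/C libraries lay below those of MyoD alone on days 2, 4 and 6, and the libraries overlapped on days 8 and 10. The day 2 rise over MEFs was 8.34 ± 0.84 on the log2 scale with MyoD alone (edgeR adjusted p = 3.1e-09) and 6.98 ± 0.79 with F/R/C (adjusted p = 4.7e-08).

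Myl7, the atrial regulatory partner, stayed near 0, at no more than 7 reads in any library. It had 5 reads in all over the 15 libraries of MyoD alone and 28 over the 15 with F/R/C. Replicate 3 with F/R/C held 0, 1, 4, 6 and 7 reads on days 2, 4, 6, 8 and 10, and the other F/R/C libraries at most 2. Of cardiomyocyte markers that skeletal muscle does not make (Nppa, Tnni3, Nkx2-5, Gata4 and Tbx5), the summed level was 1.55 to 4.25 TPM with MyoD alone, where Nkx2-5 was at 0, and 2.33 to 12.2 TPM with F/R/C. The same sum was 3.88 to 17.7 TPM in MEFs, 6.02 to 11.2 TPM in bulk myoblasts and 4.15 to 12.0 TPM in sorted myoblasts. It was 2.06 to 2.97 TPM in bulk iMPCs and 3.00 to 4.54 TPM in sorted iMPCs. The F/R/C range thus lay within that of the other groups, but the sum does not show the single genes. In MEFs, Nkx2-5 and Gata4 had 0 reads in all libraries. Of these 5 genes, 2 were called higher with F/R/C than with MyoD alone, averaged over the days (22.1% of all genes were called). They were Tnni3 (cardiac troponin I) by 2.93 and Nppa (atrial natriuretic peptide) by 2.47 on the log2 scale, at levels up to 6.94 and 2.73 TPM. On day 10 alone, 3 of the 5 were called higher with F/R/C than with MyoD alone (23.3% of all genes called). Against MEFs, 3 of the 5 were called higher on day 10 with F/R/C (34.8% of all genes). None was called lower in either comparison.

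Myl6b, the other essential chain, followed Myl4. It stood at 28.7, 13.1 and 9.29 TPM in MEFs, 298, 451 and 293 TPM on day 2 of MyoD alone and 792, 1455 and 927 TPM on day 6. It stood at 139, 196 and 103 TPM on day 2, 301, 373 and 409 TPM on day 6 and 219, 370 and 354 TPM on day 10 with F/R/C. On each of the 5 days all 3 F/R/C libraries lay below all 3 of MyoD alone. The order of the group means ran from MyoD alone on days 6, 8, 4 and 10 (1058 to 761 TPM) to F/R/C on day 6 (361 TPM). The libraries of the 4 MyoD groups overlapped, and those of MyoD alone on day 10 (449 to 1252 TPM) all lay above those of F/R/C on day 6. Its reads were whole numbers, within 0.01 reads plus a share of 2e-05 of the value, in only 25 of the 45 libraries, so some were divided with another gene and its level is less certain than that of the other members.

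Mylk2, the kinase, was at 0.213, 0.120 and 0.352 TPM in MEFs and at 2.49, 2.48 and 3.78 TPM after 2 days of MyoD alone. After day 2 of MyoD alone its mean was lowest on day 6. It stood at 1.61, 1.89 and 1.37 TPM on day 4, 1.05, 1.78 and 1.30 TPM on day 6, 1.37, 2.27 and 1.03 TPM on day 8 and 2.77, 4.06 and 1.34 TPM on day 10. Cells with F/R/C held 2.86, 3.63 and 5.88 TPM on day 2, 2.56, 3.75 and 9.58 TPM on day 4 and 2.64, 3.99 and 7.93 TPM on day 6. Replicate 3 was the highest of the F/R/C libraries on every day. Mylk2 was 2.88, 2.87 and 11.7 TPM on day 8 and 1.75, 3.24 and 13.1 TPM on day 10. All F/R/C libraries lay above those of MyoD alone on days 4, 6 and 8. Over the 15 groups the highest means were in bulk iMPCs (14.4 TPM), sorted myoblasts (11.7 TPM) and bulk myoblasts (7.85 TPM), whose libraries overlapped.

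The question of the 2-arm design is how F/R/C changes the response to MyoD. Of the 7 tested members, Myl3 was called lower on day 2 (4.93% of all genes called), day 4 (13.2%) and day 6 (15.4%), and no other member was called on those days. The log2 difference was -3.45 ± 1.09 on day 2 (edgeR adjusted p = 0.044), -3.36 ± 0.83 on day 4 (adjusted p = 0.0033) and -3.37 ± 0.82 on day 6 (adjusted p = 0.003). The day 2 call was lost when replicate 1, 2 or 3 of MyoD alone or replicate 1 or 3 of F/R/C was left out (differences from -3.59 to -2.98), and without replicate 2 of F/R/C the difference was -5.33. Without replicate 3 of F/R/C it was -4.02 on day 4 and -4.04 on day 6. The call was lost without replicate 2 in all induced groups, at -2.87 on day 4 (adjusted p = 0.086) and -2.85 on day 6 (adjusted p = 0.075). With the replicate number as a block, Myl6b was called too on day 6, at -1.53, against -1.59 (adjusted p = 0.054) without it. On day 8, 3 members were called (18.7% of all genes). Myl3 was lower at -2.09 ± 0.78 (adjusted p = 0.038), Myl2 was lower at -2.96 ± 0.97 (adjusted p = 0.018) and Mylk2 was higher by 1.86 ± 0.73 (adjusted p = 0.048). Each of these 3 calls was lost under the removal of some single library. Without replicate 2 of MyoD alone the Myl2 difference was -1.46 (adjusted p = 0.26) and the Myl3 difference -1.55, and without replicate 3 of F/R/C that of Mylk2 was 0.88 (adjusted p = 0.41) and that of Myl3 -3.39. On day 10, 23.3% of all genes were called but only 1 member, Myl2, at -3.11 ± 0.96 (adjusted p = 0.01). Its libraries overlapped, and without replicate 2 of MyoD alone the difference was -1.27 (adjusted p = 0.29). Myl3 was at -1.72 ± 0.77 on day 10 (adjusted p = 0.074), at -3.14 (adjusted p = 0.0058) without replicate 3 of F/R/C and at -0.89 (adjusted p = 0.41) without replicate 2 of MyoD alone. Differences given without a block ignore pairing by number on every day. On days 8 and 10 the numbers were not taken as pairs. With the replicate block, Myl3 was called on day 10 at -2.12 (adjusted p = 0.0056), and the Mylk2 call on day 8 was lost (1.59, adjusted p = 0.066).

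Averaged over the 5 days, a contrast added after the values were seen, 4 of the 7 tested members were called, where 22.1% of all genes were. Within an arm, deviations of same-numbered libraries from their group means correlated across days. The mean r ran from 0.172 (days 2 and 10 with F/R/C) to 0.655 (days 8 and 10 of MyoD alone). The fit takes the 15 libraries of an arm as independent, so standard errors and p-values of this contrast may be too small. Myl3 was lower with F/R/C, at -2.80 ± 0.39 on the log2 scale (edgeR adjusted p = 1.9e-07), as were Myl6b at -1.38 ± 0.28 (adjusted p = 6.1e-05) and Myl2 at -1.73 ± 0.68 (adjusted p = 0.028), and Mylk2 was higher by 1.37 ± 0.32 (adjusted p = 0.00042). Myl4 was at -0.90 ± 0.27 (adjusted p = 0.0048), which is under 2-fold. The 2 fast chains were not called, at 0.19 ± 0.38 for Myl1 (adjusted p = 0.68) and -0.27 ± 0.32 for Mylpf (adjusted p = 0.49). The median over the 7 members was -0.90, against -0.03 over all genes tested. Among 15 pairs of libraries of the same day and number, F/R/C was lower in 15 for Myl6b, 14 for Myl3, 13 for Myl4 and 12 for Myl2, and higher in 13 for Mylk2 and 11 for Myl1. Mylpf was lower in 8. The pairs include days 8 and 10, where the numbers were not taken as pairs, and each number recurs on every day. These counts are thus a description, with no share over all genes beside them. Without replicate 3 in all induced groups, Myl3 (-3.61) and Myl6b (-1.53) were still called and Mylk2 (0.53, adjusted p = 0.17) and Myl2 (-1.57, adjusted p = 0.12) were not. The Myl2 call was also lost without replicate 1 in all induced groups (-1.58, adjusted p = 0.19), and without single libraries, namely MyoD alone replicate 1 or 3 of day 2, replicate 2 of day 8 or replicate 2 of day 10 (adjusted p from 0.054 to 0.11). Whether the effect of F/R/C itself changed between day 2 and day 10 was tested as an interaction, and no member was called by edgeR or DESeq2 or had an unadjusted p under 0.05 (6.01% of all genes were called). The Myl3 difference of the differences was 1.74 ± 1.34 (adjusted p = 0.44).

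**Figure D2:**
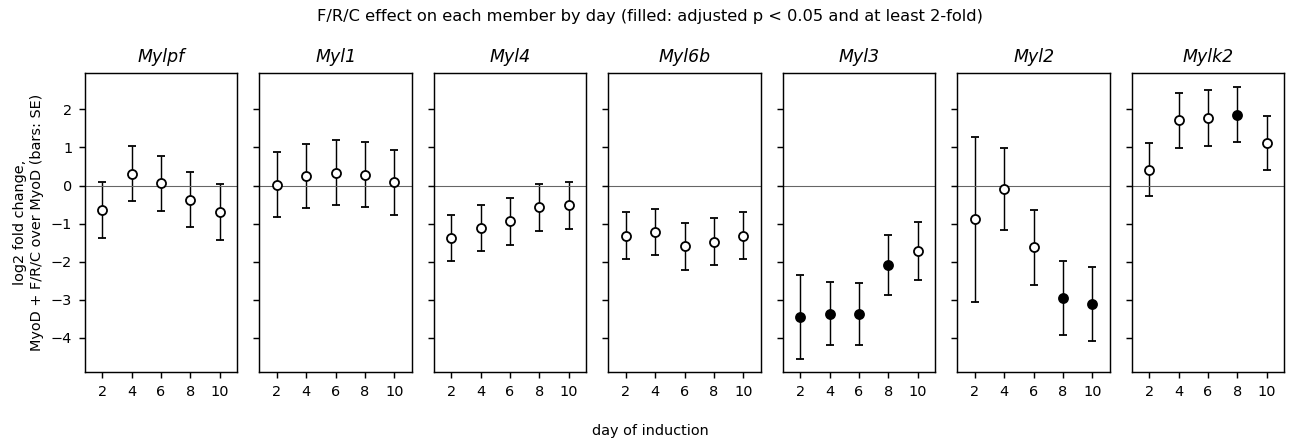
Difference between MyoD with F/R/C and MyoD alone (log2, vertical axis) on each day for the 7 tested members, with standard errors from the edgeR fit and filled points for called differences. Myl3 lies lowest on days 2, 4 and 6, at -3.45, -3.36 and -3.37, and Myl1 lies between 0.02 and 0.34.

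The make-up of the light-chain pool differed between the arms. Of the summed TPM of the 7 light chains, the fast pair took 48.5% to 67.4% with MyoD alone and 62.4% to 81.3% with F/R/C, and on each day the 2 arms did not overlap. The gap in the fast share varied by day, with means of 51.3% and 73.8% on day 4 and of 59.8% and 64.5% on day 10. The atrial and embryonic pair took 29.1% to 45.8% with MyoD alone and 16.8% to 34.2% with F/R/C, nearly all of it Myl4. For this pair the arms did not overlap from day 2 to day 8. They overlapped on day 10, with means of 34.6% with MyoD alone and 32.5% with F/R/C. Myl6b took 3.04% to 5.61% and 1.86% to 3.19%. The slow pair took 0.0469% to 1.26% and 0.00326% to 0.483%. The mean difference over days, F/R/C minus MyoD alone, was 14.4 percentage points for the fast pair, -11.7 for the atrial and embryonic pair, -2.21 for Myl6b and -0.515 for the slow pair. These shares are descriptions with no test.

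**Figure D3:**
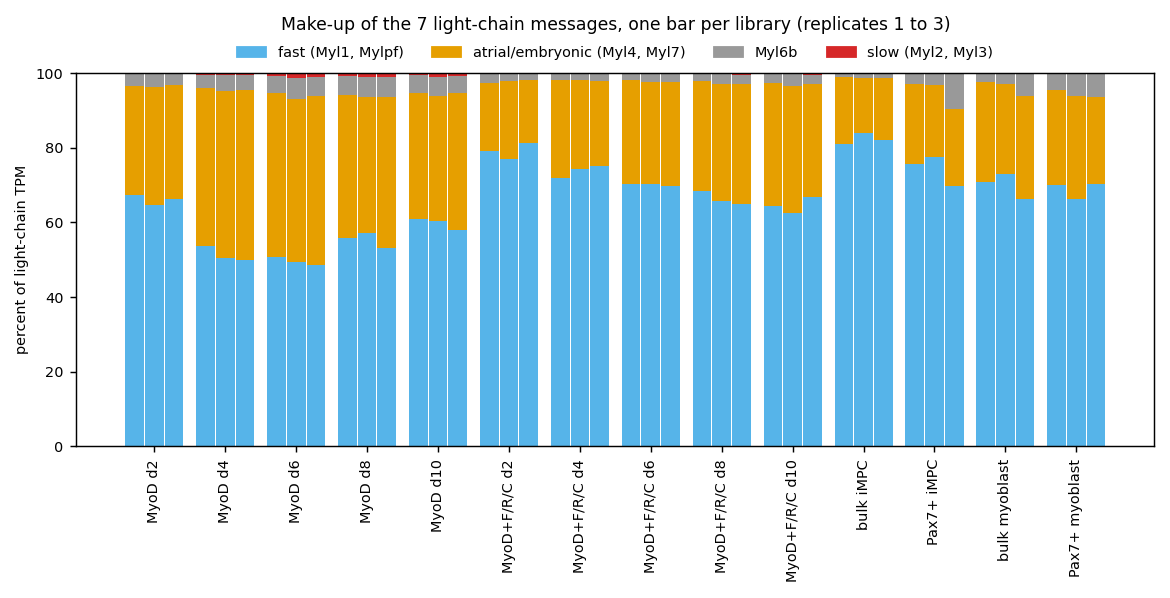
Share of each light-chain type (percent of the summed TPM of the 7 light chains, vertical axis) in the groups (horizontal axis). The fast share is 48.5% to 67.4% in the libraries of MyoD alone, 62.4% to 81.3% with F/R/C and 80.9% to 84.0% in bulk iMPCs.

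Among essential chains, Myl4 outweighed Myl1 with MyoD alone and did not with F/R/C on most days. The ratio of Myl4 to Myl1 in TPM was 1.80, 1.91 and 1.79 on day 2 of MyoD alone and 0.633, 0.800 and 0.60 with F/R/C. On day 6 it was 2.12, 2.05 and 2.39 against 0.820, 0.825 and 0.887, and on day 10 it was 1.58, 1.51 and 1.90 against 1.10, 1.12 and 0.876. Over all 5 days the 15 libraries of MyoD alone (1.51 to 2.39) lay above the 15 with F/R/C (0.60 to 1.12). The ratio was 0.465, 0.314 and 0.390 in bulk iMPCs and 0.492, 0.460 and 0.663 in sorted iMPCs. It was 0.959, 0.777 and 1.54 in bulk myoblasts and 1.70, 1.49 and 1.62 in sorted myoblasts, so the 6 iMPC libraries lay below the 6 myoblast libraries. The ratio was chosen after its values were seen and has no test. The regulatory chains had no comparable second gene, and Mylpf made up at least 99.2% of the summed TPM of Mylpf, Myl2 and Myl7 in every induced library.

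**Figure D4:**
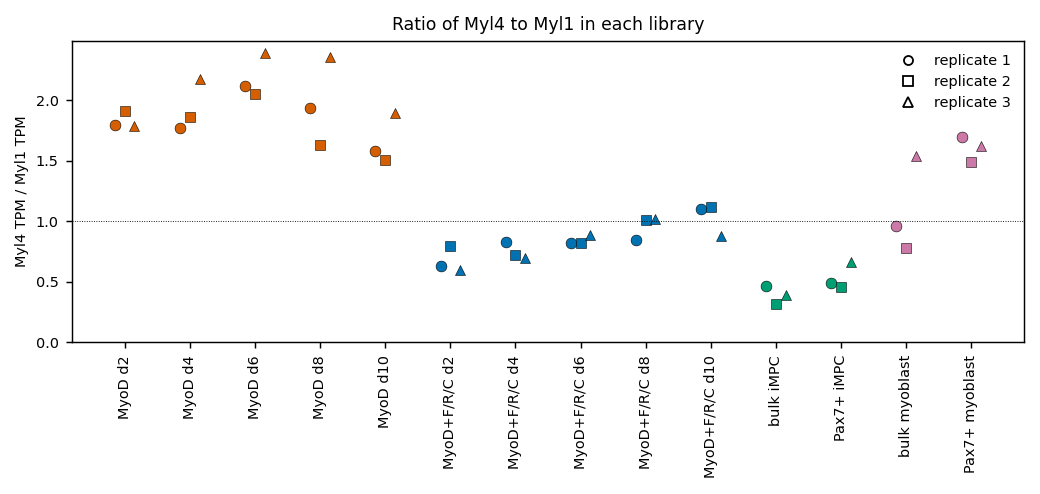
Ratio of Myl4 to Myl1 (TPM over TPM, vertical axis) in each library of each group (points). The libraries of MyoD alone lie between 1.51 and 2.39, those with F/R/C between 0.60 and 1.12 and those of bulk iMPCs between 0.314 and 0.465.

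The summed essential chains and summed regulatory chains did not keep a fixed ratio either. Essential over regulatory TPM was 0.952 to 1.07 on day 2 of MyoD alone and 0.878 to 0.983 with F/R/C. On day 6 it was 2.32 to 2.58 with MyoD alone and 1.59 to 1.75 with F/R/C, and on day 10 the order was the opposite, at 1.51 to 1.61 against 1.90 to 2.14. The libraries of the arms did not overlap on day 6 or day 10.

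The balance of the Myl1 forms differed between early and late days, a difference that was not tested. The short form MLC3f took 88.2%, 89.7% and 88.5% of the gene's TPM on day 2 of MyoD alone, and 71.7%, 71.8% and 73.3% on day 10. In the F/R/C arm it took 87.4%, 86.9% and 86.4% on day 2 and 74.3%, 75.2% and 80.4% on day 10. The long form MLC1f took 2.64% on average on day 2 and 26.4% on day 10 of MyoD alone, and 5.02% and 21.4% with F/R/C. The rest of the gene's TPM lay in transcripts assigned to neither form. In both arms this rest was larger on day 2 than on day 10. On day 2 the short share was lower with F/R/C in all libraries, and on days 6, 8 and 10 it was higher in all libraries. The mean difference over the 5 days was 1.98 percentage points, which did not pass a within-day permutation test (two-sided p = 0.061, 100000 resamples). That test takes libraries of the same number on different days as independent, so its p may be too small. On single days 3 libraries against 3 cannot give an exact permutation p below 0.1, and day 2, 6, 8 and 10 gave 0.1 (0.12 after Benjamini-Hochberg adjustment over the 5 days). Without replicate 3 the mean difference was 0.957 (permutation p = 0.36), and with shares taken from estimated counts it was 2.81 (permutation p = 0.044). In the reference groups the short share was 81.2% to 84.9% in bulk iMPCs, 81.0% to 84.3% in sorted iMPCs, 80.5% to 87.7% in bulk myoblasts and 85.7% to 92.9% in sorted myoblasts.

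**Figure D5:**
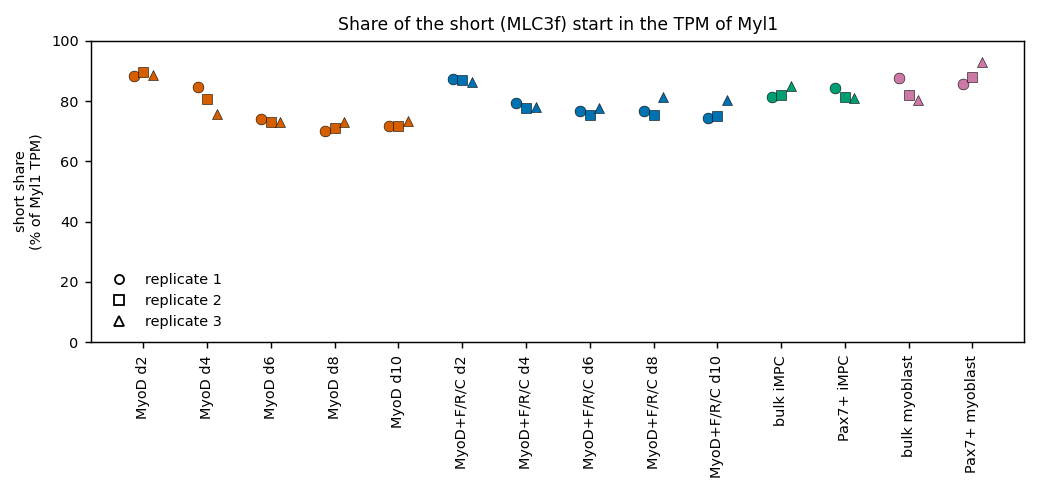
Share of the short form MLC3f (percent of Myl1 TPM, vertical axis) in each library by day. Both arms lie above 86% on day 2. The libraries with F/R/C lie above those of MyoD alone on days 6, 8 and 10.

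In bulk iMPCs, grown on in F/R/C, mean Myl1 was at its highest and the slow essential chain Myl3 was nearly absent. Myl1 stood at 7928, 8384 and 6639 TPM, Mylpf at 8593, 6721 and 6167 TPM and Myl4 at 3690, 2634 and 2588 TPM. Myl3 had 3, 2 and 1 reads, or 0.294, 0.124 and 0.109 TPM. Against F/R/C on day 10, Myl3 was the only 1 of 7 members called (9.57% of all genes), and day 10 was 230 times the level in bulk iMPCs (95% exact counting interval 105 to 629). Without replicate 3 of F/R/C on day 10 the ratio was 68.1 (30.7 to 188) and Myl3 was still called, and Mylk2 was called higher in bulk iMPCs by 2.53 on the log2 scale (edgeR adjusted p = 0.022, against 1.30 and 0.19 with it). Against bulk myoblasts no member was called by edgeR or DESeq2 or had an unadjusted p under 0.05 (19.6% of all genes were called), with log2 differences from -1.34 ± 1.55 for Myl3 to 1.06 ± 0.70 for Mylk2. Bulk myoblast libraries spread widely, with Myl1 at 6463, 5402 and 151 TPM and Mylpf at 9932, 7252 and 405 TPM, and no member was called when any single library was left out. Myl3 was at 0.935, 0.570 and 0 TPM there. All 6 fibroblast markers were higher in bulk iMPCs than in bulk myoblasts, and their part in these levels was not tested.

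Pax7-sorted iMPCs held less of most members than bulk iMPCs. In sorted iMPCs Myl1 stood at 294, 560 and 178 TPM, Mylpf at 221, 478 and 219 TPM, Myl4 at 145, 258 and 118 TPM and Mylk2 at 0.182, 3.00 and 1.91 TPM. Of the 7 tested members, 6 were called lower than in bulk iMPCs, all but Myl3 (30.3% of all genes, 20.5% lower). The log2 differences were -4.50 ± 0.98 for Myl1 (edgeR adjusted p = 0.00036), -4.49 ± 0.84 for Mylpf (adjusted p = 5.5e-05), -3.88 ± 0.68 for Myl4 (adjusted p = 2.5e-05), -2.98 ± 1.17 for Myl2 (adjusted p = 0.034), -2.63 ± 0.74 for Mylk2 (adjusted p = 0.0039) and -1.97 ± 0.63 for Myl6b (adjusted p = 0.01). Myl2 had only 1, 3 and 2 reads in the sorted iMPC libraries. The Myl2 call was lost without replicate 1, 2 or 3 of sorted iMPCs or replicate 3 of bulk iMPCs, and that of Myl6b without replicate 1 of sorted iMPCs. Without replicate 2 of sorted iMPCs the Mylk2 difference was -3.22. In the same comparison all 7 fast partner genes and 5 of 6 skeletal muscle markers were lower. All 6 fibroblast markers were lower too (median -4.30 on the log2 scale), as were 3 of 6 smooth muscle markers, and 4 of 5 muscle progenitor markers were higher. Their part in the light-chain differences was not tested. Sorted libraries were quantified with another fragment setting (median length minus effective length plus 1 of 180.03 bases, against 152.8 in the others), whose part in these differences cannot be told apart from sorting.

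Sorted myoblasts held more of most light chains than sorted iMPCs. They held Mylpf at 1145, 1138 and 5341 TPM, Myl4 at 530, 650 and 2222 TPM, Myl1 at 311, 435 and 1368 TPM and Mylk2 at 8.82, 18.1 and 8.19 TPM. Replicate 3 was several times the others for the 3 light chains. Sorted iMPCs were lower in 5 of 7 members (30.0% of all genes, 17.6% lower), with differences of -3.16 ± 0.79 for Mylpf (edgeR adjusted p = 0.0013), -2.91 ± 0.65 for Myl6b (adjusted p = 0.00046), -2.87 ± 0.65 for Myl4 (adjusted p = 0.00049), -2.72 ± 0.74 for Mylk2 (adjusted p = 0.003) and -3.05 ± 1.18 for Myl2 (adjusted p = 0.032). Without replicate 3 of sorted myoblasts these were -1.83, -1.49 and -1.80 for the first 3, all still called, and the Myl2 call was lost. Without replicate 2 of sorted iMPCs the Mylk2 difference was -3.33. Leaving out replicate 1, 2 or 3 of sorted iMPCs or replicate 2 of sorted myoblasts also ended the Myl2 call. That call sets 1, 3 and 2 reads in sorted iMPCs against 7, 36 and 15 in sorted myoblasts. Myl1 was not called, at -1.0 ± 0.86 (adjusted p = 0.35), and its libraries overlapped. All 6 skeletal muscle markers were lower in sorted iMPCs too. Between sorted and bulk myoblasts no member was called by edgeR (6.23% of all genes). Myl1, at -2.45 ± 0.90 (adjusted p = 0.069), was the only 1 with an unadjusted p under 0.05 and was called by DESeq2. With bulk myoblast replicate 3 left out, Myl1 (-3.02, adjusted p = 0.014) and Myl4 (-1.64, adjusted p = 0.032) were called lower in sorted cells. Without sorted myoblast replicate 3 the same 2 were called, at -3.55 and -2.14.

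Partner genes of the light chains were read in the averaged contrast of F/R/C with MyoD alone. Among 7 fast partners, 3 were higher with F/R/C and none lower (median 0.65 on the log2 scale). All 3 are fast heavy chains, Myh1 (5.10 ± 0.45, TPM of 3.27 to 31.0 with MyoD alone and 109 to 835 with F/R/C), Myh4 (2.03 ± 0.36) and Myh2 (1.09 ± 0.32). The fast troponins Tnnt3, Tnni2 and Tnnc2 had differences of -0.29 to 0.17, near those of the fast light chains. Among 6 slow partners none was called (median -0.43), and the slow heavy chain Myh7 was at -0.70 ± 0.35 (edgeR adjusted p = 0.081). Neither of the developmental heavy chains Myh3 and Myh8 was called. Among regulators of muscle genes, those called higher included Myf6 (6.72 ± 0.48, TPM of at most 3.00 with MyoD alone and up to 77.4 with F/R/C) and Six4 (1.16 ± 0.09), a transcription factor of muscle development. The 3 lower were Prox1 (-1.81 ± 0.23) and Nfatc1 (-1.33 ± 0.13), both known for their part in slow-fibre genes, and Myod1 (-1.09 ± 0.25), which sums the transgene and the endogenous gene. Myod1 ran from 648 to 4620 TPM with MyoD alone and from 583 to 1283 TPM with F/R/C, and its part in the light-chain differences was not tested. Of 3 tested smooth and nonmuscle light chains none was called, though Myl12a was at -0.83 ± 0.12 (adjusted p = 2.5e-07). Of 10 genes for other light chain kinases, the myosin phosphatase and calmodulin, none was called. None of the 6 skeletal muscle markers was called. Of 6 fibroblast markers 3 were higher and 2 lower, of 6 smooth muscle markers 1 was higher and 2 lower, and of 5 muscle progenitor markers 1 was higher and 1 lower. Their part in the light-chain differences was not tested.

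Profiles across the 15 groups were compared between each member and the other genes. The likeness is Pearson's r between group means of log2 CPM (counts scaled to library size), a description in which all genes share the same libraries. Closest to Myl1 were Actn2 (r = 0.994), Myh3 (0.991) and Tnnc2 (0.989), and closest to Mylpf were Xirp1 (0.995), Myh3 (0.995) and Tnnt3 (0.993). Myl4 was closest to Cacna1s (0.996), Myom3 (0.991) and Neurl1a (0.990), and Myl6b to Cobl (0.972), Plpp7 (0.969) and Esrrb (0.962). Myl3 was closest to Pnmt (0.976), Ppp2r2c (0.973) and Snx8 (0.972), Myl2 to Kcne1 (0.909), Zfp641 (0.905) and Il21r (0.905), and Mylk2 had Zscan18 (0.964) and Morc3 (0.963) among its closest. Among members, Myl1 and Mylpf were most alike (0.98), with Myl4 near both (0.95 and 0.97), and Myl6b was nearest to Myl4 (0.96). Mylk2 had its highest r with Mylpf (0.67) and its lowest with Myl3 (-0.18).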

How the data were processed

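The data are bulk RNA-seq of 45 libraries. Per the labels' protocols, poly-A RNA libraries were stranded and read from 1 end on a NovaSeq, and sorted cells were lysed directly. Per the submitters' processing notes, the tools were bcl2fastq 2.19, Trimmomatic 0.36, kallisto 0.44 and edgeR 3.28, with build GRCm38.p6. Per the file headers, the authors' files give each transcript's length, effective length, estimated counts (not normalised) and TPM. Estimated counts split a read that fits several transcripts. The authors' TPM values are scaled to effective length and to a fixed sum, and keep no depth.

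Of 121843 transcripts, 121104 matched GENCODE M21, which held from 99.4% to 99.8% of the reads. Values were summed over 35675 genes, and count sums were rounded. Tests used edgeR 4.0.16 in R 4.3.3 (TMM, filterByExpr, 17325 genes, a coefficient per group, 30 residual degrees of freedom), with Benjamini-Hochberg adjustment over all genes tested. Standard errors were derived from the fold change and the F statistic. Count intervals are exact at 95%. Neighbouring genes are the 3 with the highest Pearson r to a member over the 15 group means of log2 CPM (prior count 2), leaving out Gm and Rik models. Every member is named, and from the fixed lists the examples are those called with the largest differences. The members and lists were chosen with earlier results of these data known. Lists are given by counts and medians, with no set test. A regulator and a gene close to Mylk2 are not reported here. The Myl1 share uses libraries with at least 50 reads in the gene.

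Libraries of the same number were checked for pairing by the correlation of their deviations from group means. Between the arms it was 0.223 to 0.375 for all 3 numbers on days 2, 4 and 6, which was read as pairing. On days 8 and 10 it was 0.227 to 0.264 for numbers 1 and 2, which lies within that range, and 0.079 and 0.062 for number 3. The numbers were not taken as pairs on these days, a reading that rests on number 3 alone. The main tests used no replicate block on any day and so ignore pairing, and the block was run as an alternative. Alternatives were DESeq2 1.42.0, relative log expression scaling, no filter, no minimum fold, only the groups compared, the replicate block and leaving out each library. The fit was tested on simulated data for the F/R/C contrast on day 10. Of 200 genes changed 4-fold, 137 were called in the right direction (68.5%), with 8 false among 145 calls. A member that was not called may thus still differ.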

Additional observations from a re-analysis of the deposited data

How the results depend on the processing

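Calls on single days of the F/R/C contrast were the least stable. In a fit of the compared groups alone, the number of members called was 3 on day 2 (1 in the fit of all groups), 4 on day 4 (1), 3 on day 6 (1), 1 on day 8 (3) and 0 on day 10 (1). It was 5 for F/R/C day 10 against day 2 (2) and 3 for sorted iMPCs against sorted myoblasts (5). That fit called 1420 of 14094 genes on day 2, 2493 of 14656 on day 4 and 2809 of 14832 on day 6. The fit of all groups called 854, 2294 and 2663 of 17325 genes on those days. Without the filter on low counts the number of members called was 0 on day 2 and 1 on day 8. DESeq2 gave 2 on day 4, 3 on day 6, 2 on day 8 (Myl3 lost, at -2.04, adjusted p = 0.051), 3 for F/R/C day 10 against day 2 (Myl4 added) and 1 (Myl1) for sorted against bulk myoblasts (0). Without the filter, Myl7 was also called in the averaged contrast, and without the minimum fold Myl4 was, which gave 5 members in each case. The Myl7 call rests on 28 reads with F/R/C, most of them in replicate 3, and 5 with MyoD alone. It was not refitted without replicate 3.

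With the replicate block, 2 members were called on day 6 (Myl6b added) and 2 on day 10 (Myl3 added, at -2.12), and on day 8 the Mylk2 difference was 1.59 (adjusted p = 0.066). The pairing by number was not taken as given on days 8 and 10. For the share of the short Myl1 form the block gave an exact permutation p of 0.08, with the difference lower in 5 of 15 pairs.

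When libraries were left out, the number of members called ran from 0 to 1 on day 2, 0 to 2 on day 4, 0 to 2 on day 6, 0 to 2 on day 8 and 0 to 2 on day 10. It ran from 2 to 4 for the average of the 5 days, 1 to 2 for MyoD day 10 against day 2 and 1 to 3 for F/R/C day 10 against day 2. It ran from 1 to 2 for bulk iMPCs against F/R/C day 10, 4 to 6 for sorted against bulk iMPCs and 0 to 2 for sorted against bulk myoblasts. The number of all genes called changed too. For F/R/C on day 2 it was 171 of 17649 without replicate 3 in all induced groups, against 854 of 17325 with it. The share of the short form was 2.81 percentage points higher with F/R/C in estimated counts (permutation p = 0.044, and 0.061 in TPM). The Myl6b share of the light chains differed by -2.70 percentage points in CPM and by -2.21 in TPM. No called value changed sign under the alternatives run. Depth limits Myl7 in all libraries, Myl2 in MEFs, on day 2 and in sorted iMPCs, and Myl3 in MEFs, iMPCs and myoblasts. There, single reads set the value.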
